A study of Mus musculus with 12 samples.

Results

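The genes of cholesterol and fatty acid synthesis were followed in 12 mouse brain cell cultures, 9 grown from glioblastomas and 3 from neural stem cells. The set holds 39 genes: the enzymes from acetyl-CoA to cholesterol, the enzymes that make, elongate and desaturate fatty acids, the sterol-responsive regulators, and the LXR receptors with the sterol exporters. Members were taken by name, and a probe set counted only when the platform annotation gave it exactly 1 gene symbol, that of a member. By this rule 37 of the 39 genes were measured, on 40 of the 28270 probe sets of the arrays, and Acat2 and Nr1h2 were not analysed here. Idi1, Fdft1 and Acaca had 2 probe sets each, and the probe set with the smaller p-value stood for the gene.

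All mice lacked Arf, the tumour suppressor transcript of the Cdkn2a locus, so the neural stem cells share this deletion with the tumour cells. Each mouse line also carried the avian virus receptor tv-a under the control of a different promoter: Gfap in G/tv-a;Arf-/- mice, Nes in N/tv-a;Arf-/- mice and Cnp in C/tv-a;Arf-/- mice. Tumours arose after DF-1 chicken cells that release the RCAS-PDGFB-HA virus were injected into the adult brain, so that only receptor-bearing cells could take up the PDGFB oncogene. The groups named mGC1_GFAP, mGC2_NES and mGC3_CNP hold 3 tumour cultures each from G/tv-a, N/tv-a and C/tv-a mice. The group named NSC holds 3 untreated cultures of the adult subventricular zone, 1 from each line. In the tumour cultures the cell that was infected and the mouse line coincide and cannot be told apart. All 12 cultures received the same medium, which contained insulin, and no treatment. The labels call the tumour cultures biological replicates without saying whether each came from its own mouse. P-values then measure the spread between these cultures.

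Cholesterol is built from acetyl-CoA through mevalonate, isoprenoid units and squalene, and fatty acid synthase builds palmitate from the same starting molecule. The transcription factor SREBF2 drives mainly the sterol enzymes and SREBF1 mainly the fatty acid enzymes. INSIG1 holds the precursors of both in the endoplasmic reticulum when sterols are plentiful. LXR receptors sense oxysterols and switch on Srebf1 and the exporters Abca1 and Abcg1. In the brain, cholesterol is made locally, and both lipids are needed in quantity for myelin.

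Values are log2 array signals, so a difference of 1 is a doubling, and levels of different genes are not compared. A gene was called changed when its adjusted p-value over all 21780 single-symbol probe sets was under 0.05 in limma. Readings of 4 testis transcripts taken as absent reached 7.42, which served as the background ceiling. The 3 NSC cultures carried the neural stem cell markers, whose summed level over 5 genes was 53.9 to 55.0 against 41.6 to 44.8 in the tumour cultures, where 4 of the 5 genes were lower. Summed levels of 5 astrocyte markers were 50.0 to 51.5 in NSC and 31.0 to 35.2 in the tumour cultures. Summed levels of 5 oligodendrocyte precursor markers ran the other way, 52.7 to 53.3 in NSC and 63.3 to 64.1 in the tumour cultures. Of these 5, Pdgfra, Sox10 and Cspg4 were higher, while Olig1 (-0.04) and Olig2 (-0.14) were not called, and Olig2 was called lower in mGC2_NES alone. Summed levels of 6 markers of differentiated oligodendrocytes were 43.9 to 44.3 in NSC and 49.9 to 57.6 in the tumour cultures. Bcas1, Myrf and Mbp were called higher and Mobp lower, with every group mean of Mobp under the background ceiling. In bulk cultures fewer cells of a type and less RNA per cell cannot be told apart. The part of these marker differences in the results that follow was not tested.

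Individual lipid genes differed between tumour and neural stem cells in both directions, in a share near that of all genes. Of the 37 genes, 8 were higher in the tumour cultures (18.0% of all genes were) and 8 lower (19.4% of all genes). These 16 genes are 43.2% of the members, beside 37.3% of all 19934 genes in the same comparison. The median difference was 0.01 over the members and 0.01 over all genes. Arrays of the tumour and NSC cultures did not overlap for 7 of 37 members, a smaller share than the 27.8% of all genes. The 4 changes of at least 2-fold were in the fatty acid elongases Elovl7 and Elovl2 and the sterol exporters Abcg1 and Abca1. At this fold, 7.61% of all genes were called.

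**Figure D1:**
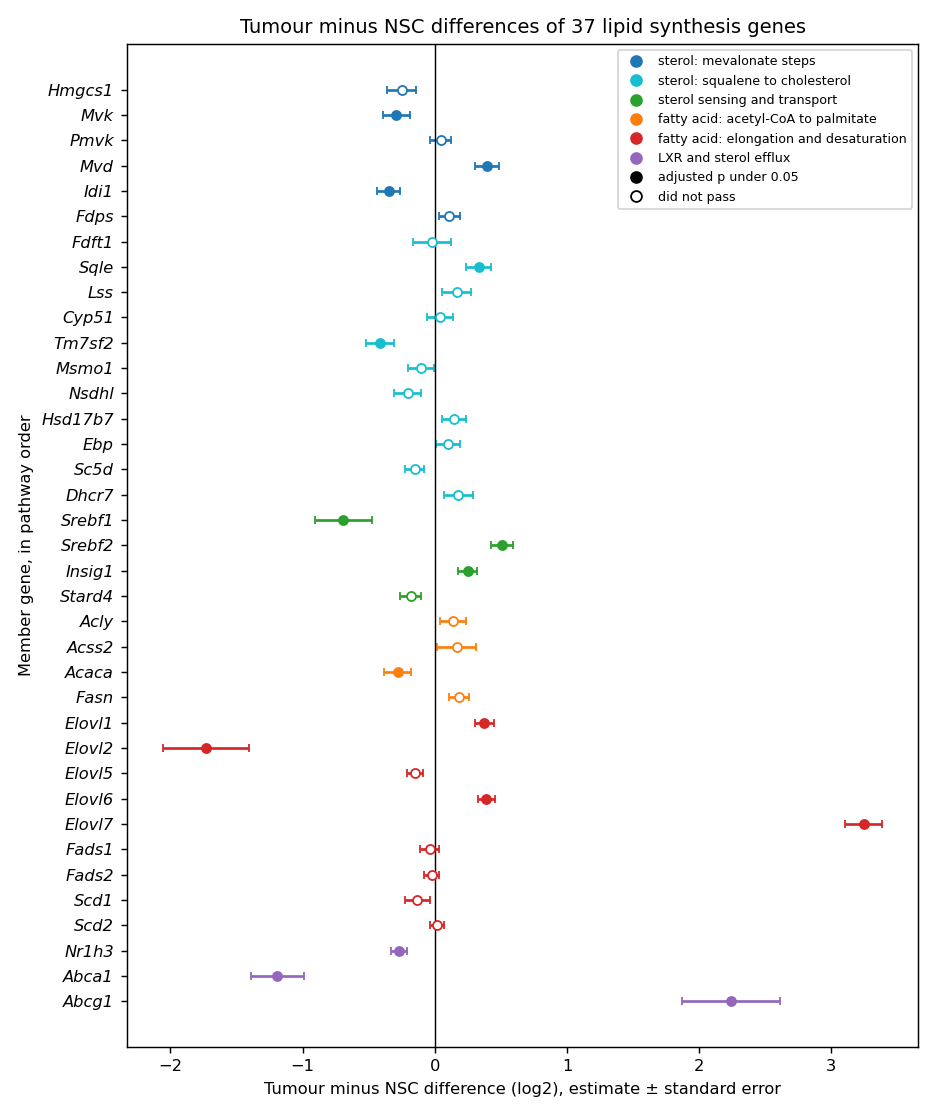
Difference between the mean of the 9 tumour cultures and the mean of the 3 NSC cultures for each of the 37 genes (log2, x axis), in pathway order, with the standard error from the limma fit. The sterol enzymes lie between -0.41 and 0.40, and the differences of Elovl7, Abcg1, Elovl2 and Abca1 exceed 1 in size.

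In the sterol branch, 5 of 17 measured enzymes were called (29.4%, beside 37.3% of all genes), 2 higher and 3 lower. Tumour and NSC arrays overlapped for all 17, while they did not for 27.8% of all genes. Mvd and Sqle rose, while Mvk, Idi1 and Tm7sf2 fell. The estimates of the 17 enzymes ran from -0.41 to 0.40 with a median of 0.04. Averaged over the branch, the deviation of a culture from the mean of all 12 ran from -0.21 in mGC3_CNP culture 1 to 0.19 in the G/tv-a NSC culture. These extremes lie in different groups, and the group means were 0.03 in mGC1_GFAP, 0.04 in mGC2_NES, -0.09 in mGC3_CNP and 0.01 in NSC.

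Among the mevalonate steps, Hmgcs1, which makes HMG-CoA, read 12.22, 12.34 and 12.62 in the C/tv-a, N/tv-a and G/tv-a NSC cultures, the order kept throughout. The tumour readings were 12.20, 12.15 and 12.18 in mGC1_GFAP, 12.48, 12.30 and 12.21 in mGC2_NES and 11.73, 11.83 and 12.23 in mGC3_CNP. The estimate over the 9 tumour cultures was -0.25 ± 0.11 (SE), with an adjusted p of 0.102, so it was not called. Mvd, which decarboxylates mevalonate diphosphate, read 9.65, 9.48 and 9.88 in NSC. It read 10.02, 10.09 and 9.87 in mGC1_GFAP, 10.19, 10.34 and 10.19 in mGC2_NES and 9.89, 9.87 and 10.15 in mGC3_CNP. All 3 mGC2_NES cultures were above every NSC culture, and the lowest readings of the other tumour groups were just under the G/tv-a NSC culture. Mvd was 0.40 ± 0.09 higher in the tumour cultures, or 1.32-fold (adjusted p = 0.00452).

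Idi1, the isomerase of isopentenyl diphosphate, read 11.30, 11.13 and 11.35 in NSC, and 11.18, 11.00 and 11.06 in mGC1_GFAP. In mGC2_NES it read 11.03, 10.80 and 10.75, and in mGC3_CNP 10.73, 10.68 and 10.99. The 6 cultures of mGC2_NES and mGC3_CNP were all below NSC, while mGC1_GFAP overlapped it. Idi1 fell by 0.35 ± 0.09 (adjusted p = 0.00678), and its other probe set fell by 0.31 (adjusted p = 0.0112). Mvk, mevalonate kinase, fell by 0.29 ± 0.10, with 10.02, 9.97 and 10.26 in NSC and 9.49 to 10.03 in the tumour cultures (adjusted p = 0.0390). The Mvk call was lost in 7 of the 12 fits that each left out 1 culture, with an adjusted p up to 0.205 without the G/tv-a NSC culture. Pmvk (0.04) and Fdps (0.11) were not called.

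From squalene synthesis onwards, Sqle, the squalene epoxidase that commits squalene to sterols, read 11.79, 11.73 and 11.95 in NSC. Its readings were 12.29, 12.36 and 12.30 in mGC1_GFAP, 12.26, 12.11 and 12.05 in mGC2_NES and 11.73, 12.08 and 12.23 in mGC3_CNP. mGC1_GFAP and mGC2_NES lay above NSC throughout, and mGC3_CNP culture 1 was level with the lowest NSC culture. Sqle was 0.33 ± 0.10 higher in the tumour cultures (adjusted p = 0.0165; 0.0668 without the C/tv-a and 0.0838 without the N/tv-a NSC culture). Tm7sf2, a sterol C14 reductase, read 10.41, 10.15 and 10.32 in NSC and fell by 0.41 ± 0.11 (adjusted p = 0.00872; 0.0544 without the C/tv-a NSC culture). Its tumour readings are given with the comparison of the tumour groups. The other 9 enzymes of this stretch were not called: Fdft1 -0.02, Lss 0.17, Cyp51 0.04, Msmo1 -0.10, Nsdhl -0.21, Hsd17b7 0.15, Ebp 0.10, Sc5d -0.15 and Dhcr7 0.18. In mGC1_GFAP alone against NSC, Sc5d was called lower, by 0.32 ± 0.09 (adjusted p = 0.0150).

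**Figure D2:**
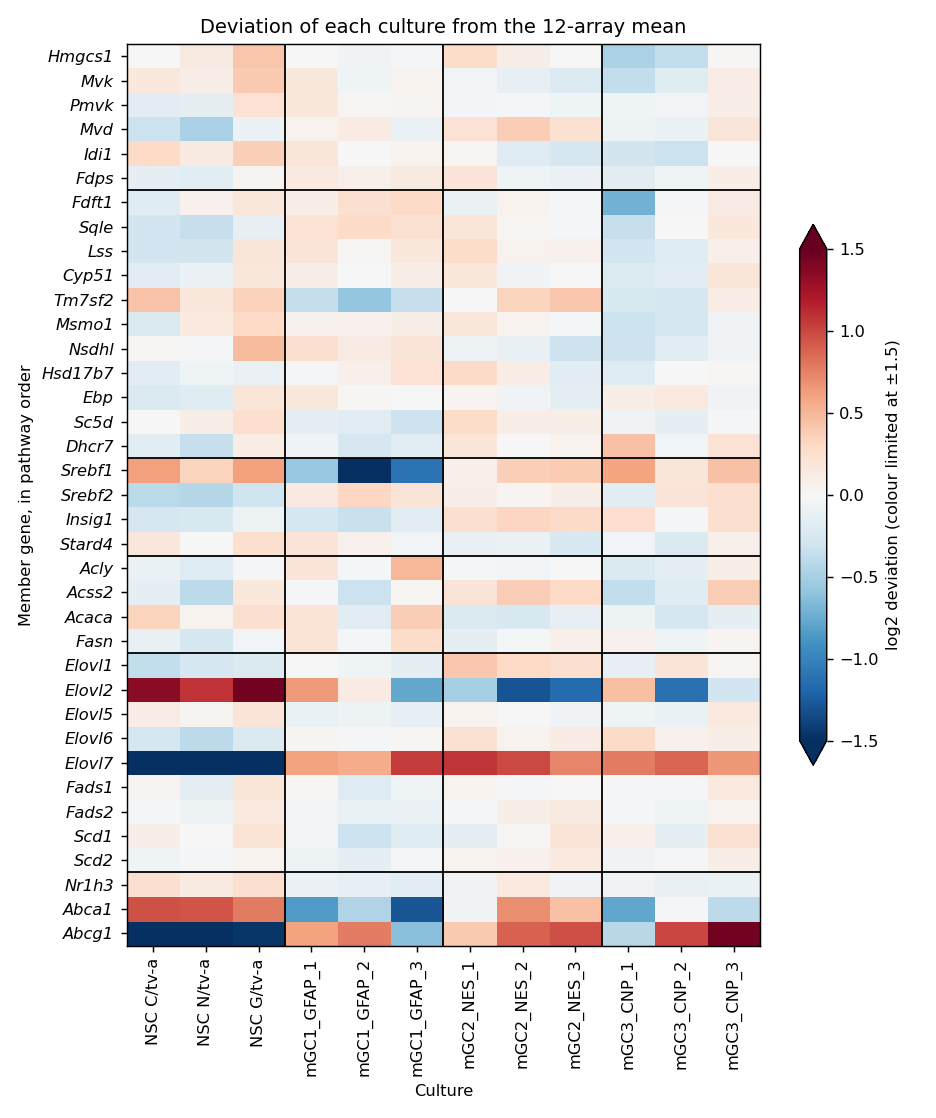
Deviation of each of the 12 cultures (columns) from the mean of all 12 arrays for each gene (rows, pathway order), on a log2 colour scale limited at ±1.5. Elovl7 and Abcg1 are low in the 3 NSC cultures, Elovl2 and Abca1 are high there, and Srebf1 is low in the mGC1_GFAP cultures.

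The promoters of the sterol enzymes share a sequence feature that the choice of members did not use. RefSeq start sites (GRCm38.p6), with 250 bases upstream and 50 downstream, were available for 31 of the 39 genes, in 39 windows. The box CCAAT, bound by NF-Y, a common partner of SREBF proteins, was found on either strand in 22 of 31 member genes (71.0%) against 41.1% of all 27025 genes. It was present in 14 of 15 genes of the sterol branch and 5 of 10 of the fatty acid branch. The E-box CACGTG was in 6 of 31 members (19.4%) and 8.09% of all genes, and the sterol element TCACNCCAC in 1 of 31 (3.23%) and 1.44% of all. The perfect DR4 repeat, 1 form of the site bound by LXR, was in 0 of 31 and 0.0148% of all. With so low a share in all genes, 0 of 31 cannot tell members from other genes. Imperfect repeats were not searched, so the sequences below can hold LXR sites that are not marked. No 2 of these motifs overlapped in a member window. A match is a string of letters, not a measured binding site.

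The upstream 250 bases of 6 promoters are shown as examples. Hmgcs1, not called over the 9 tumour cultures, and Mvk are sterol enzymes shown for their motifs. Hmgcs1 holds the 1 sterol element found among the members, and Mvk holds 5 CCAAT boxes. Insig1 and Srebf1 are regulators that differed between tumour groups. Abca1 is an exporter that fell, and Elovl7 is the member that rose most. Capitals mark every match to the CCAAT box, the E-box or the sterol element on either strand. On the opposite strand the first of these reads ATTGG. Srebf1 has 3 start windows, and the one shown is the third.
Hmgcs1 promoter, chr13:119690101-119690350, plus strand: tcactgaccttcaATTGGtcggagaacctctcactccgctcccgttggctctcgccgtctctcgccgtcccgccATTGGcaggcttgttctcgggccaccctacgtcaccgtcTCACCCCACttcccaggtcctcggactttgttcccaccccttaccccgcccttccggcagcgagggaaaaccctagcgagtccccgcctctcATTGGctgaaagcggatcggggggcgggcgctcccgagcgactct
Mvk promoter, chr5:114444019-114444268, plus strand: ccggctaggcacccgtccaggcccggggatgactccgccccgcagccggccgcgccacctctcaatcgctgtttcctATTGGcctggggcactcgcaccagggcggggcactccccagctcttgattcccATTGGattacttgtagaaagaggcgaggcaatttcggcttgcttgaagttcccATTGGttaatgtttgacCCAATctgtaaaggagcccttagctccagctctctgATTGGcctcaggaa
Insig1 promoter, chr5:28071162-28071411, plus strand: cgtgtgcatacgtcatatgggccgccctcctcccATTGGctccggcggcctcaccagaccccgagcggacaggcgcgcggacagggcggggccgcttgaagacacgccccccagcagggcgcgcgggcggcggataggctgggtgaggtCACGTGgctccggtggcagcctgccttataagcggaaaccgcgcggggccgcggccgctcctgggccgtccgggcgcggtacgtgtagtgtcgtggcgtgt
Srebf1 promoter, chr11:60210472-60210721, minus strand: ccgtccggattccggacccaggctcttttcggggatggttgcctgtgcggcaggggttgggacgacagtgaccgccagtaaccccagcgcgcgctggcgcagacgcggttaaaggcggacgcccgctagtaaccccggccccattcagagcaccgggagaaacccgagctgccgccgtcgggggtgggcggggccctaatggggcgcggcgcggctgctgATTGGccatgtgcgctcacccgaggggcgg
Abca1 promoter, chr4:53159896-53160145, minus strand: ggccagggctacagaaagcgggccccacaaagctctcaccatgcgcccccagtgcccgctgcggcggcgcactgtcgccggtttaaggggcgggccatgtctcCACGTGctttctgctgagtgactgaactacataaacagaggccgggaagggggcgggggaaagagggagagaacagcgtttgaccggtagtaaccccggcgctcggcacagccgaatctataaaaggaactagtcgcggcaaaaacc
Elovl7 promoter, chr13:108214154-108214403, plus strand: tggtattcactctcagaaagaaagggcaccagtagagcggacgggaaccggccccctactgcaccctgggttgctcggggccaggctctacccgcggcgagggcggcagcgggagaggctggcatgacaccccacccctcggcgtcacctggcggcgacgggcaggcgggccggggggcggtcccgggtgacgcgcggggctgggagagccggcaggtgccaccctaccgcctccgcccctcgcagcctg
Hmgcs1 has 1 sterol element and 3 CCAAT boxes in this stretch, and Mvk has 5 CCAAT boxes. Insig1 holds 1 CCAAT box and 1 E-box, Srebf1 holds 1 CCAAT box, Abca1 holds 1 E-box, and Elovl7 has none of these letters here.

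Among the regulators, Srebf2 rose in every tumour group and Srebf1 fell in 1 of them. Srebf2, the main activator of sterol enzymes, read 11.70, 11.68 and 11.80 in NSC, and 12.24, 12.42 and 12.30 in mGC1_GFAP. It read 12.21, 12.14 and 12.20 in mGC2_NES and 11.94, 12.30 and 12.35 in mGC3_CNP. All 9 tumour cultures were above all 3 NSC cultures. Srebf2 was 0.51 ± 0.08 higher, or 1.42-fold (adjusted p = 4.37e-04), and the sterol branch beside it had the median of 0.04 given above.

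Srebf1, the main activator of fatty acid enzymes, read 11.36, 11.08 and 11.37 in NSC. It read 10.19, 8.82 and 9.65 in mGC1_GFAP, 10.83, 11.11 and 11.13 in mGC2_NES and 11.34, 10.94 and 11.20 in mGC3_CNP. The 3 mGC1_GFAP cultures were lower than all other 9, while the other tumour groups overlapped NSC. Over the 9 tumour cultures Srebf1 fell by 0.69 ± 0.22 (adjusted p = 0.0254; 0.0949 without the C/tv-a and 0.0913 without the G/tv-a NSC culture). In the single groups against NSC, it fell by 1.72 ± 0.27 in mGC1_GFAP, 3.29-fold (adjusted p = 4.66e-04). The estimates were -0.25 ± 0.27 in mGC2_NES (adjusted p = 0.530) and -0.11 ± 0.27 in mGC3_CNP (adjusted p = 0.814).

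Insig1, which retains SREBF precursors and is itself a target of SREBF, read 12.12, 12.15 and 12.30 in NSC and 12.12, 12.04 and 12.21 in mGC1_GFAP. It read 12.62, 12.70 and 12.66 in mGC2_NES and 12.63, 12.35 and 12.62 in mGC3_CNP. The last 6 cultures were above every NSC and mGC1_GFAP culture, and mGC1_GFAP overlapped NSC. Over the 9 tumour cultures Insig1 was 0.25 ± 0.07 higher (adjusted p = 0.0152; 0.0782 without the C/tv-a and 0.0671 without the N/tv-a NSC culture). Stard4, a cytosolic sterol carrier, had an estimate of -0.18 and was not called.

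In the fatty acid branch, 5 of 13 genes were called in the tumour cultures against NSC, 3 higher and 2 lower. This share, 38.5%, is close to the 37.3% of all genes. Of these calls, 4 were elongases and 1 was the carboxylase Acaca, and none of the 4 desaturases was called. Averaged over the branch, cultures deviated from the mean of all 12 by -0.21 (the N/tv-a NSC culture) to 0.12 (mGC1_GFAP culture 1). The group means were 0.04, 0.05 and 0.03 in mGC1_GFAP, mGC2_NES and mGC3_CNP, and -0.12 in NSC. These means include Elovl7, whose tumour minus NSC estimate of 3.24 was the widest, and do not describe a rise of the whole branch. The estimates of the 13 genes ran from -1.73 to 3.24 with a median of 0.01.

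Of the 4 palmitate genes, only Acaca, which makes malonyl-CoA, was called. It read 11.26, 10.97 and 11.16 in NSC, 11.12, 10.76 and 11.29 in mGC1_GFAP, 10.70, 10.69 and 10.79 in mGC2_NES and 10.84, 10.67 and 10.77 in mGC3_CNP. All 6 mGC2_NES and mGC3_CNP cultures were below NSC, and mGC1_GFAP overlapped it. The overall difference was a fall of 0.28 ± 0.10 (adjusted p = 0.0453), while the other Acaca probe set had an estimate of -0.17 (adjusted p = 0.264), so the probe sets differ in their call. The call was also lost in 8 of the 12 fits without 1 culture, with an adjusted p up to 0.201 without the C/tv-a NSC culture.

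Fasn, the fatty acid synthase, read 12.55, 12.41 and 12.63 in NSC and 12.87, 12.65 and 12.94 in mGC1_GFAP. The other tumour cultures read 12.53, 12.65 and 12.74 in mGC2_NES and 12.74, 12.60 and 12.71 in mGC3_CNP. The mGC1_GFAP cultures were all above NSC, and the others overlapped it. The estimate over the 9 tumour cultures was 0.19 ± 0.08 (adjusted p = 0.0790), and in mGC1_GFAP alone Fasn was 0.29 ± 0.09 higher (adjusted p = 0.0343). Acly (0.14) and Acss2 (0.16), which supply acetyl-CoA, were not called.

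Elovl7, an elongase of very long saturated chains, showed the widest difference of all members. It read 7.42, 8.02 and 8.02 in NSC, and 10.86, 10.81 and 11.31 in mGC1_GFAP. It read 11.32, 11.25 and 10.99 in mGC2_NES and 11.02, 11.13 and 10.91 in mGC3_CNP. No tumour culture came near NSC, and the lowest NSC reading lay at the background ceiling. Elovl7 was 3.24 ± 0.14 higher, 9.47-fold (adjusted p = 1.35e-08). The 3 tumour groups overlapped one another.

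Elovl2, which extends polyunsaturated chains, moved the other way. It read 9.81, 9.54 and 9.90 in NSC and 9.09, 8.57 and 7.68 in mGC1_GFAP. It read 7.96, 7.16 and 7.30 in mGC2_NES and 8.91, 7.34 and 8.17 in mGC3_CNP. All 9 tumour cultures were below NSC, spread over 1.93 log2 units, and 3 of them were under the background ceiling. Elovl2 fell by 1.73 ± 0.33, 3.32-fold (adjusted p = 0.00133).

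Elovl6, which takes palmitate to stearate, read 12.44, 12.31 and 12.49 in NSC and 12.68 to 12.99 in the tumour cultures, with no overlap. It was 0.39 ± 0.06 higher (adjusted p = 5.25e-04). Elovl1, which makes very long saturated chains, read 11.25, 11.37 and 11.41 in NSC and 11.48 to 12.02 in the tumour cultures, again with no overlap, and was 0.37 ± 0.07 higher (adjusted p = 0.00139). Among the desaturases, the estimate was 0.01 ± 0.05 for Scd2 (adjusted p = 0.876), whose readings spanned 13.63 to 13.92 over the 12 cultures. Scd1 (-0.13), Fads1 (-0.04), Fads2 (-0.02) and Elovl5 (-0.15) were not called.

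**Figure D3:**
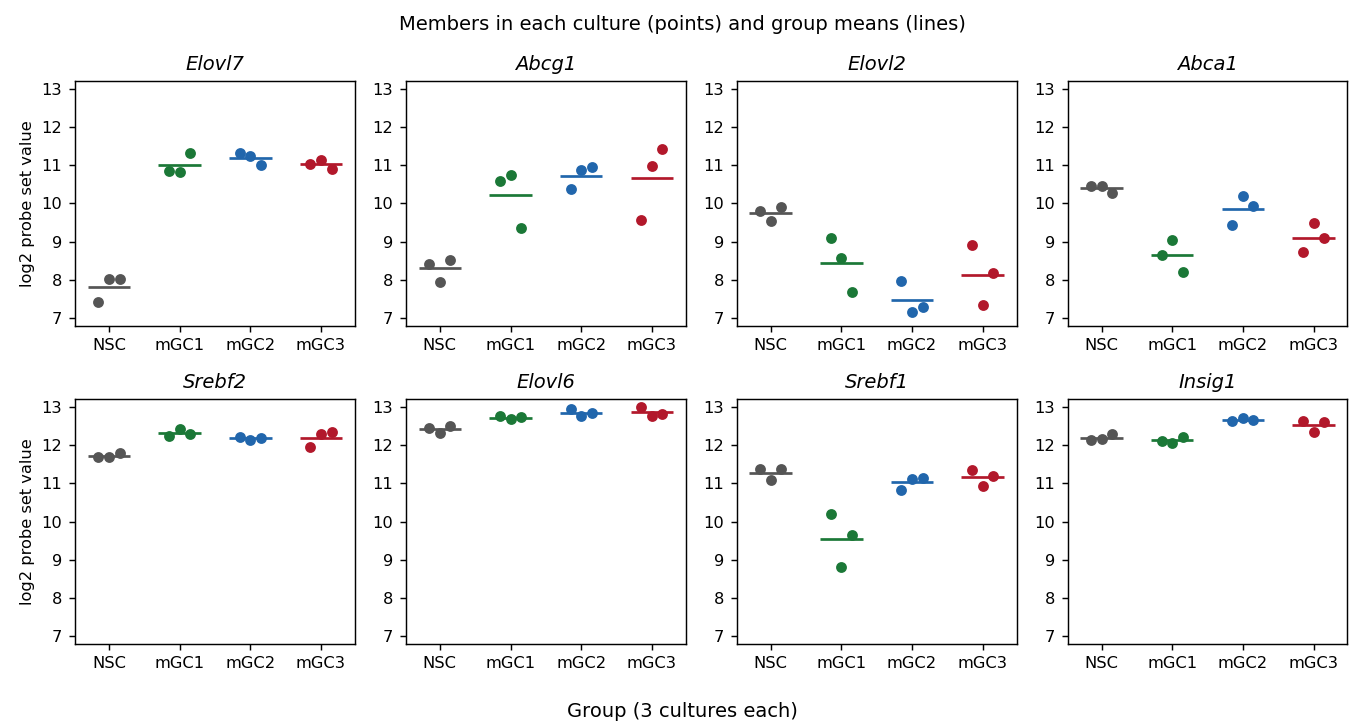
Log2 signal (y axis) of 8 members in each culture, by group, 1 point per culture and a line at each group mean. Elovl7 and Abcg1 are above NSC in all 9 tumour cultures, Elovl2 and Abca1 below it, and Srebf1 is separated only in mGC1_GFAP.

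The 2 sterol exporters moved in opposite directions. Abcg1, which passes cholesterol to HDL-like particles, read 8.42, 7.95 and 8.52 in NSC. It read 10.59, 10.75 and 9.36 in mGC1_GFAP, 10.37, 10.86 and 10.95 in mGC2_NES and 9.56, 10.98 and 11.43 in mGC3_CNP. All tumour cultures were above NSC, and Abcg1 was 2.24 ± 0.37 higher, 4.73-fold (adjusted p = 5.10e-04). Abca1, which loads cholesterol onto apolipoproteins, read 10.45, 10.44 and 10.28 in NSC. Its readings were 8.65, 9.05 and 8.22 in mGC1_GFAP, 9.44, 10.20 and 9.93 in mGC2_NES and 8.72, 9.48 and 9.11 in mGC3_CNP. All tumour cultures were below NSC, mGC2_NES culture 2 only slightly, and Abca1 fell by 1.19 ± 0.20, 2.28-fold (adjusted p = 5.38e-04). The receptor Nr1h3 fell by 0.27 ± 0.06 (adjusted p = 0.00289), but its 12 readings, 6.92 to 7.33, were all under the background ceiling.

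Set against NSC singly, mGC1_GFAP had 12 members called, 6 higher and 6 lower (29.8% of all genes were called, 14.1% higher and 15.7% lower). mGC2_NES had 11 called, 7 higher and 4 lower (35.4% of all genes, 17.1% higher and 18.3% lower). mGC3_CNP had 14 called, 6 higher and 8 lower (31.0% of all genes, 15.3% higher and 15.7% lower). These 3 comparisons share the same NSC arrays. Elovl7, Elovl6, Abcg1 and Srebf2 were called higher and Elovl2 lower in all 3. Elovl7 was 3.17, 3.36 and 3.20 higher in mGC1_GFAP, mGC2_NES and mGC3_CNP, and Elovl2 fell by 1.30, 2.28 and 1.61. Hmgcs1 fell by 0.47 in mGC3_CNP, where Mvk fell by 0.36 (adjusted p = 0.0205 and 0.0422).

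Over the 3 tumour groups together few members differed, a share near that of all genes. Between mGC1_GFAP and mGC2_NES the share was above that of all genes, though it depended on single cultures. A test of any difference among the 3 groups called 2 of 37 (5.41%), beside 4.15% of all genes. The 2 were Insig1 (adjusted p = 0.0236) and Srebf1 (adjusted p = 0.0272). Between mGC1_GFAP and mGC2_NES 6 members were called (16.2%), all lower in mGC1_GFAP. Of all genes, 3.18% were lower there and 6.23% were called in either direction. The 6 members were Srebf1, Abca1, Tm7sf2, Insig1, Elovl1 and Sc5d. Arrays of these 2 groups did not overlap for 22 of 37 members, a larger share than the 26.8% of all genes. Only 1 of the 6 was called without mGC1_GFAP culture 3, mGC2_NES culture 2 or mGC2_NES culture 3, and 2 without mGC1_GFAP culture 1. The F test called 0 members without each of the first 3 of these cultures, and 1 without the last. Over all probe sets its calls fell from 882 to between 222 and 305 without these cultures. No member was called between mGC1_GFAP and mGC3_CNP (11 at an unadjusted p under 0.05; 0.492% of all genes called) or between mGC2_NES and mGC3_CNP (8; 0.492%).

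Srebf1 was 1.47 ± 0.29 lower in mGC1_GFAP than in mGC2_NES, 2.77-fold (adjusted p = 0.0204; 0.0545 to 0.0687 without each of mGC1_GFAP culture 3, mGC2_NES culture 2 and mGC2_NES culture 3). Against mGC3_CNP it was 1.61 ± 0.29 lower with an adjusted p of 0.0567, and the 3 arrays of each group did not overlap in either comparison. Among genes that SREBF proteins are known to drive, some were called between these groups and others were not. Insig1 was called lower in mGC1_GFAP, as given next. Of the genes outside the set, Me1, which makes NADPH for lipogenesis, was called lower on both of its probe sets, -0.48 and -0.46 (adjusted p = 0.0365 and 0.0387). Thrsp was also called lower, -0.45 (adjusted p = 0.0366), with both group means under the background ceiling. The fatty acid enzymes Fasn, Acly, Acaca, Scd1, Scd2, Elovl6 and Acss2 were not called. The mGC1_GFAP minus mGC2_NES difference was 0.18 for Fasn (adjusted p = 0.315), 0.25 for Acly (0.322), -0.21 for Scd1 (0.388), -0.17 for Scd2 (0.183), -0.12 for Elovl6 (0.437) and -0.39 for Acss2 (0.241). Both Acaca probe sets had positive estimates, 0.33 and 0.40.

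Insig1 was 0.54 ± 0.09 lower in mGC1_GFAP than in mGC2_NES (adjusted p = 0.0109), with no overlap of the readings given above. Tm7sf2 read 9.62, 9.40 and 9.63 in mGC1_GFAP, 9.98, 10.31 and 10.38 in mGC2_NES and 9.75, 9.74 and 10.09 in mGC3_CNP. All mGC1_GFAP cultures lay below all others, and the difference from mGC2_NES was -0.67 ± 0.13 (adjusted p = 0.0215). Abca1 was 1.22 ± 0.27 lower in mGC1_GFAP than in mGC2_NES, 2.32-fold (adjusted p = 0.0305). Sc5d, the lathosterol desaturase, read 10.92, 10.89 and 10.74 in mGC1_GFAP and 11.33, 11.15 and 11.16 in mGC2_NES, a difference of -0.36 ± 0.08 (adjusted p = 0.0316). Elovl1 read 11.63, 11.56 and 11.48 in mGC1_GFAP and 12.02, 11.93 and 11.86 in mGC2_NES, -0.38 ± 0.09 (adjusted p = 0.0416). None of these 5 pairs of groups overlapped. Oligodendrocyte precursor marker sums were 63.8 to 64.0 in mGC1_GFAP and 63.3 to 63.9 in mGC2_NES, and astrocyte marker sums 33.0 to 35.2 and 31.0 to 31.7. The astrocyte gap lay in Slc1a3, 2.41 ± 0.75 higher in mGC1_GFAP but not called (adjusted p = 0.0996). Gfap, Aqp4, Aldh1l1 and Gja1 read under the background ceiling in both groups. Neural stem cell marker sums were 44.0 to 44.8 in mGC1_GFAP and 41.6 to 43.1 in mGC2_NES, without overlap, and 2 of the 5 genes were called higher in mGC1_GFAP. These were Nes, 1.01 ± 0.19 (adjusted p = 0.0181), and Nr2e1, 0.68 ± 0.12 (adjusted p = 0.0139). Their part in these differences was not tested.

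**Figure D4:**
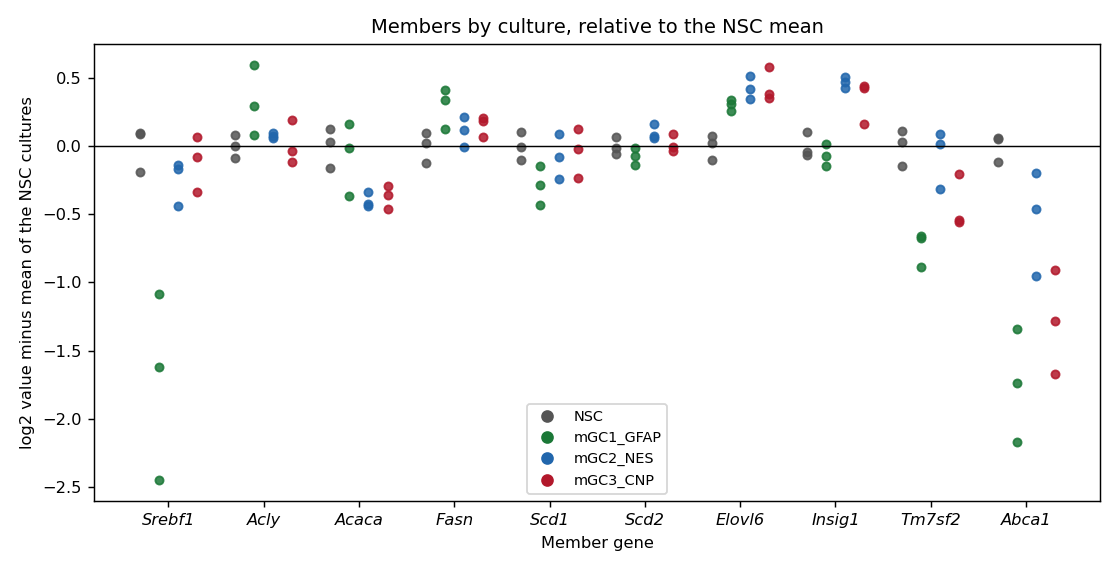
Log2 signal of each culture minus the NSC mean (y axis) for Srebf1, fatty acid genes, Insig1, Tm7sf2 and Abca1, 1 point per culture, coloured by group. The mGC1_GFAP points of Srebf1 lie more than 1 log2 unit under NSC, while those of Fasn lie above it.

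Tumour cultures differed most among themselves in Srebf1 (range over the 9 cultures 2.52), Abcg1 (2.07), Abca1 (1.98) and Elovl2 (1.93). The other 33 members spanned 0.222 to 0.991.

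Further genes of the pathways were read in the same fit, in which 37.3% of all genes were called, 18.0% higher and 19.4% lower. Of 14 genes listed as other sterol pathway genes 7 were called against NSC, 6 higher and 1 lower, with a median of 0.15. The 6 include Pcyt2 (0.85), an enzyme of phosphatidylethanolamine synthesis rather than of sterols. Osbp, an oxysterol-binding transfer protein, was 0.89 ± 0.09 higher. Cyp7b1, an oxysterol hydroxylase, was called higher, with the NSC mean and the mean of all tumour cultures under the background ceiling. Its mGC2_NES mean, 7.46, was just above the ceiling, and mGC2_NES against NSC was called higher (adjusted p = 0.00151). Scap, the SREBF escort protein, fell by 0.17. Of 24 other fatty acid synthesis genes 9 were called, 4 higher and 5 lower, with a median of -0.02. Dgat2, which makes triglyceride, was 0.90 ± 0.15 higher, and Acacb, the mitochondrial acetyl-CoA carboxylase, at least 0.63 higher. Thrsp, a lipogenic protein, fell by at least 1.99. Its partner Mid1ip1 fell by 0.94 ± 0.09 on 1 probe set, while the other had an estimate of 0.06 (adjusted p = 0.546). Of 19 oxidation and uptake genes 10 were called, 3 higher and 7 lower, with a median of -0.14. Ppard was 0.76 ± 0.07 and Cpt1a 0.54 ± 0.18 higher, and the dehydrogenase Acadl fell by 1.08 ± 0.12. The uptake gene Cd36 was called lower, with both means under the background ceiling.

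Between mGC1_GFAP and mGC2_NES, 5 of the 24 other fatty acid genes were called, all lower in mGC1_GFAP, beside 6.23% of all genes called and 3.18% lower. The difference was widest for Dgat2, -1.25 ± 0.19 (adjusted p = 0.00932), and Lpin1, a phosphatidate phosphatase, -0.90 ± 0.15 (adjusted p = 0.0111). Among the sterol genes, the lysosomal cholesterol carrier Npc2 was 0.63 ± 0.08 lower (adjusted p = 0.00519). Fabp5, a fatty acid binding protein, was 0.52 ± 0.10 higher in mGC1_GFAP (adjusted p = 0.0192).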

How the data were processed

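Each of the 12 cultures was hybridised to 1 Affymetrix array that covers whole transcripts. Per the submitters' processing notes, the authors made the deposited log2 values with RMA in Affymetrix Expression Console, which background-corrects, quantile-normalizes and summarises probes. Not given in the sources used here: versions, summarisation level, genome build. Quantile normalization sets all arrays to nearly the same distribution, so a change in total RNA per cell would not show. Of 28270 probe sets, 21780 had 1 gene symbol in the platform annotation, which can be old, 1617 had several and 4873 were not listed there.

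Groups came from the labels. limma 3.58.1 in R 4.3.3 was fitted to all 21780 probe sets (lmFit and eBayes, with 1 mean per group): the 9 tumour cultures against the 3 NSC cultures, each tumour group against NSC, and, in the 9 tumour cultures, each pair of groups and an F test. P-values were adjusted by Benjamini-Hochberg over all probe sets. For the 19934 genes, the probe set with the smallest p stood for its gene. The fit was tested on simulated data. The number of arrays limits precision, and the SE is that of the fit. A difference whose lower group mean was at or under the ceiling of 7.42 is a lower bound. Per-culture values are given for the called members with the largest non-overlapping changes of each branch, for members called between tumour groups, and for the regulators, Fasn and Scd2. Values are also given for members near these in the pathway, chosen after their values were seen. Members and lists were chosen with earlier results of these data known. Alternatives were each array left out, replicate and mouse line blocks, centring, filters, thresholds and the spread from other arrays. Promoter sequences are RefSeq's, GRCm38.p6.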

Additional observations from a re-analysis of the deposited data

Results flagged for a closer look

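Effects in the tumour groups differed from one another, by limma's test of the difference itself, for 6 members, each lower in mGC1_GFAP than in mGC2_NES. Srebf1 differed by -1.47 and Abca1 by -1.22. Tm7sf2 differed by -0.67 and Insig1 by -0.54. Elovl1 and Sc5d differed by -0.38 and -0.36. All groups held 3 cultures, too few for a test of single outlying samples.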

How the results depend on the processing

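No result changed direction under any alternative run. With an adjusted p under 0.01 in place of 0.05, 5 members were lower in the tumour cultures in place of 8, and the F test among tumour groups called 0 in place of 2. It called 4 with the spread taken from all 12 arrays, where mGC1_GFAP against mGC3_CNP called 1 in place of 0. The replicate number as a block gave 4 members in the F test, and 5 in place of 6 between mGC1_GFAP and mGC2_NES; the count between mGC2_NES and mGC3_CNP stayed at 0. Deviations of same-numbered cultures of mGC2_NES and mGC3_CNP correlated at 0.165, 0.254 and 0.132, and within this pair of groups each culture correlated best with its own number, a hint of pairing from the data. Same-numbered pairs that include mGC1_GFAP ran from 0.00224 to 0.254, and different-numbered ones from -0.174 to 0.134. These ranges overlap and do not settle pairing, so across the 3 groups the numbers were not taken as pairs. Leaving out 1 culture at a time gave 6 to 10 members higher and 5 to 9 lower than NSC, 5 without NSC culture 1 or 3. It gave 10 to 14, 9 to 14 and 10 to 15 called in mGC1_GFAP, mGC2_NES and mGC3_CNP against NSC. The F test ranged from 0 to 3, with 0 without mGC1_GFAP culture 3 or mGC2_NES culture 2 or 3, and 1 without mGC1_GFAP culture 1. Between mGC1_GFAP and mGC2_NES 1 to 7 were called, 2 without mGC1_GFAP culture 1, and 1 without mGC1_GFAP culture 3 or mGC2_NES culture 2 or 3. Against mGC3_CNP, mGC1_GFAP gave 0 to 1, the 1 without mGC1_GFAP culture 1, and mGC2_NES 0 to 0. Insig1 kept its mGC1_GFAP to mGC2_NES call in all 9 such fits, Srebf1 lost it in 3 (adjusted p up to 0.0687), Abca1 in 4, Tm7sf2 in 5, Sc5d in 6 and Elovl1 in 7. Against NSC, 10 of the 16 calls held in all 12 fits, and Acaca was lost in 8, Mvk in 7, Insig1, Sqle and Srebf1 in 2 each and Tm7sf2 in 1. The cause of these changes was not tested beyond the smaller number of arrays. Readings near the ceiling limit Nr1h3, Elovl2 and the NSC level of Elovl7.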
